A study of Mus musculus with 41 samples.

Results

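The MLL3/4 sites of uninduced keratinocytes were compared between living skin and culture. MLL3 and MLL4 were mapped by CNR (CUT&RUN, in which an antibody-tethered nuclease releases the DNA bound by a protein), and 1 deposited peak list stood for each state. The in vivo list held 37072 peaks and the cultured list 33975 peaks on the assembled chromosomes, of 306057 peaks in the 15 lists of the series used here. A peak was counted as shared where it overlapped a peak of the other list by at least 1 bp, and as in vivo only or culture only otherwise.

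The study, with 41 samples in all, followed the switch of epidermal stem cells (EpdSCs) to a hair follicle fate after SOX9 induction with doxycycline (DOX). The in vivo cells (D0) were EpdSCs from the back skin of male CD1 mice at postnatal day 21 (P21), before any DOX, sorted as CD49f-high, Ly6A-high and CD34-negative cells lacking CD31, CD45, CD117 and CD140a. The cultured cells were keratinocytes from mouse back skin, also male CD1, kept without DOX, with no age and no sort given. Both groups of 2 samples carried K14rtTA and TRE-myc-Sox9, in which the *Krt14* promoter drives the DOX-dependent activator and this activator drives MYC-tagged SOX9, and both received the same MLL3/4 antibody at 1:50. The methods describe cultures from newborn pups in low-calcium medium and also lines made by lentiviral transfer of SOX9 with puromycin selection, so the origin of the transgene in the cultured cells is unsure. Age, culture, sort and selection went with the comparison and cannot be told apart.

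MLL3 and MLL4 are the histone methyltransferases that place the H3K4me1 mark on enhancers, the distal elements that set which genes a cell type uses. They do not read DNA sequence by themselves in the manner of transcription factors, and are brought to enhancers by factors such as those of the epidermis, among them TP63, GATA3, the KLF and GRHL families and AP1. Keratinocytes that leave the skin for culture take on features of cells at a wound edge, with AP1 activity and migration.

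The DNA at the unshared peaks is shown first, because its short words differed between the classes. The word AGATAA is read by GATA factors, TGACTCA by AP1 and TGTGGTT by RUNX factors, and NFKB stands for the consensus of that inflammatory factor. Each window holds 101 bp around a peak's maximum (mm10, plus strand, 5′ to 3′), and capitals mark every match to the 16 words counted further on, on whichever strand it lay. *Stx12* and *Cald1* are among the 5 strongest unshared peaks of their list. The others are among the strongest unshared peaks that hold the word in question, and were chosen after the values were seen. The *Pdzrn4* window lay between genes, 10.1 kb from the nearest protein-coding start, and the *Trp63* window 143 kb from a start of that gene, a master regulator of stratified epithelia. The *Pcsk6*, *Stx12* and *Cald1* windows lay in introns of these genes, those of *Rnf144a*, *Cdc5l* and *Sulf1* between genes, and that of *Itgav* at an annotated start of another gene, 23.4 kb from the start of the αv integrin gene.
Pdzrn4, in vivo only, GATA word, chr15:92386441-92386541: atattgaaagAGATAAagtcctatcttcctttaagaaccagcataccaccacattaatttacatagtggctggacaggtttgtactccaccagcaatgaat
Trp63, in vivo only, GATA word, chr16:25945472-25945572: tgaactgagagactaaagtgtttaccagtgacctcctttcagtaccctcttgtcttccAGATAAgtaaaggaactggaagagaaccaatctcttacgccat
Pcsk6, in vivo only, GATA and AP-2 words, chr7:65873640-65873740: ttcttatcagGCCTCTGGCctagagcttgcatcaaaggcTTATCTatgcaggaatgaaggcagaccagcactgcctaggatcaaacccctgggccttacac
Stx12, in vivo only, AP1 word, chr4:132874673-132874773: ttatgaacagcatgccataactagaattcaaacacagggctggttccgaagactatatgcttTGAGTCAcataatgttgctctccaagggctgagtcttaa
Cald1, culture only, KLF, GATA and CEBP words, chr6:34620399-34620499: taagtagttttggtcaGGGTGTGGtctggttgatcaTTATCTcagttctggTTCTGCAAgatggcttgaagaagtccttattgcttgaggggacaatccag
Rnf144a, culture only, AP1 word, chr12:25861149-25861249: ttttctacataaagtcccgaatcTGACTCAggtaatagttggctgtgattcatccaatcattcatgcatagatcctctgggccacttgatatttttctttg
Cdc5l, culture only, AP1 word, chr17:45359751-45359851: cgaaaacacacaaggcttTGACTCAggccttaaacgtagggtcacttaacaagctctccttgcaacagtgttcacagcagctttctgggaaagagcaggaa
Sulf1, culture only, RUNX and AP1 words, chr1:12623424-12623524: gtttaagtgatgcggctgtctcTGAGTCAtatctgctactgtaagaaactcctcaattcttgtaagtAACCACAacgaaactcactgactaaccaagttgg
Itgav, culture only, NFKB and CEBP words, chr2:83700767-83700867: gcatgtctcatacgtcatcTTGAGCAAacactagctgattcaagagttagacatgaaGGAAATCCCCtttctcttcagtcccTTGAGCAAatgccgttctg

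The 3 GATA-word peaks ranked 147, 172 and 233 of the in vivo list by total signal, and all 3 were also in the in vivo MLL3/4 lists of 1 week (W1) and 2 weeks (W2) of DOX and in none of the 3 cultured MLL3/4 lists with DOX. The AP1-word peaks at *Rnf144a* and *Cdc5l* ranked 161 and 183 of the cultured list, the peak at *Sulf1*, with both the RUNX and the AP1 word, 279 and the NFKB-word peak at *Itgav* 286. These 4 recurred in both cultured MLL3/4 lists with mutant SOX9. Those at *Cdc5l* and *Itgav* were also in the in vivo W1 list.

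Of the in vivo peaks, 40.4% (14962; 95% Wilson confidence interval, CI, 39.9 to 40.9) overlapped a cultured peak, and 22110, or 59.6%, were in vivo only. Of the cultured peaks, 44.6% (15160; 95% CI 44.1 to 45.2) were shared and 18815, or 55.4%, were culture only. After a shift of 10 kb in either direction, 3.52% and 3.93% of peaks overlapped the other list. Among unshared peaks, 13.7% of the in vivo and 11% of the cultured ones had a peak of the other list within 1 kb. Each list was called on the combined samples of its group, so no spread between replicates exists and no test between the groups was made. The intervals cover counting error over peaks only, and the depth of both lists is unknown.

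The share that was shared followed the strength of a peak within its own list. In the strongest 10% by total signal, 72.6% (95% CI 71.2 to 74.1) of in vivo and 74.6% (95% CI 73.1 to 76.1) of cultured peaks were shared. In the weakest 10% these shares were 16.8% (95% CI 15.6 to 18) and 25.6% (95% CI 24.1 to 27.1). Strong peaks were also wider, with a median of 689 bp in the strongest and 193 bp in the weakest 10% in vivo. The signal was in whole numbers and was taken as unscaled coverage. A common scale between the lists is not known, so only ranks were compared. At the 14962 shared in vivo peaks, the total signals of the lists had a Spearman's rho of 0.37 across peaks, 0.46 at the 4789 promoters among them and 0.34 at the 10173 others. These are descriptions across peaks that share their libraries. Of the same peaks, 1178 were in the strongest 10% of both lists, 387 were in the strongest 10% in vivo but the weaker 50% in culture, and 382 the reverse.

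**Figure D1:**
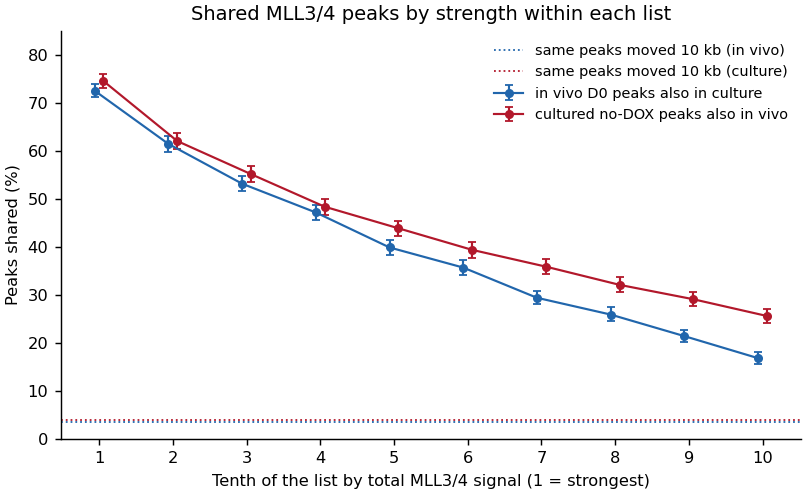
Share of peaks overlapped by the other list (y axis, %) in 10 equal parts of a list by total MLL3/4 signal (x axis, 1 the strongest), with 95% Wilson intervals as bars; dotted lines give the overlap after a 10 kb shift. Shares go from 72.6% to 16.8% in vivo and from 74.6% to 25.6% in culture.

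The 3 shared peaks of best summed rank lay in predicted genes *Gm10800* and *Gm10801* on chromosome 2 and 37.3 kb from *Rpusd4* on chromosome 9, with ranks 1, 2 and 3 in both lists. Maxima there reached 5686 in vivo, against a median of 7 over the list. *Gm10800* and *Gm10801* belong to satellite repeats, in which reads of many copies pile up. The window of the peak near *Rpusd4*, with a maximum of 2970, holds nearly the same letters as that of *Gm10800*.

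The strongest in vivo only peak, rank 18 of the list (chr16:25957782-25958696), overlapped an annotated exon of a transcript that is not protein-coding, past the end of *Trp63* and 147 kb from the start of *P3h2* (a collagen prolyl hydroxylase). The next were 10.3 kb from *Tnfrsf19* (a TNF receptor family member of hair follicles) at rank 39, and in introns of *Atxn1* at rank 45, *Rnf217* at rank 52 and *Stx12* at rank 53. All 5 were also in the W1 and W2 in vivo lists, and 2 of them (*Tnfrsf19* and *Stx12*) were in a cultured list with mutant SOX9. In the central windows of these 5 peaks none of 16 words was found except AP1 at *Stx12*.

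The strongest culture only peaks were 57.2 kb from *Kcna4* (rank 20), 47.9 kb from *Resf1* (rank 41), in an intron of *Cald1* (rank 44), 20.9 kb from *Arfgef1* (rank 48) and 22 kb from *Atp8b1* (rank 73). All 5 recurred in the 3 cultured MLL3/4 lists with DOX, and the first 2 were also in both in vivo lists after DOX. *Cald1* encodes caldesmon, which binds actin and myosin in contractile and migrating cells.

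In vivo only peaks lay at promoters more often than culture only peaks. Within 1 kb of an annotated start of any gene lay 25.3% (95% CI 24.8 to 25.9) of in vivo only, 12.7% (95% CI 12.3 to 13.2) of culture only and 32% (95% CI 31.3 to 32.8) of shared in vivo peaks. The difference between the unshared classes was 12.6 points (95% CI 11.8 to 13.3). In each of 10 equal parts of the lists by total signal the in vivo only share was the higher, from 13% against 8.35% in the strongest to 23.3% against 14.8% in the weakest. Culture only peaks instead lay in introns (43.8%) and between genes (38.4%), against 36.6% and 33.5% of in vivo only peaks.

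Over genes the same holds at starts. Of 21853 protein-coding genes, 31.9% had an in vivo peak and 21.7% a cultured peak within 1 kb of a start. Both lists marked 3908 genes, the in vivo list alone 3064 and the cultured list alone 833.

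Other MLL3/4 lists separated the unshared sites by their source. At W1 in vivo, 39.2% (95% CI 38.6 to 39.9) of in vivo only peaks still had an MLL3/4 peak, against 10.9% (95% CI 10.5 to 11.4) of culture only peaks (moved background 3.83% and 2.19%). In cultured cells with DOX and SOX9 lacking its transactivation domain (ΔTA), the order was the reverse, with 4.01% (95% CI 3.76 to 4.27) of in vivo only and 50.3% (95% CI 49.5 to 51) of culture only peaks. With SOX9 lacking its DNA-binding HMG domain (ΔHMG), 4.25% and 46.4% were found. In cultured cells with DOX and full-length SOX9, whose list was shorter at 10543 peaks, 1.42% (95% CI 1.28 to 1.59) of in vivo only and 11.3% (95% CI 10.8 to 11.7) of culture only peaks were found, the second near the 10.9% of the in vivo W1 list. Recurrence followed strength within the list, as 92.3% of in vivo only peaks of the strongest 10% were in the W1 list and 15.5% of those of the weakest 10%. For culture only peaks in the ΔTA list these shares were 98.1% and 20.3%. The list of cultured replicate 1 alone, which is part of the cultured pool, held 90.7% of the culture only and 7.3% of the in vivo only peaks.

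A stricter set was drawn from these lists after the values were seen. Of in vivo only peaks, 4972 (22.5%) were in both W1 and W2 and in no cultured MLL3/4 list, and of culture only peaks 5260 (28%) were in replicate 1, ΔTA and ΔHMG and in no in vivo MLL3/4 list. They are called recurrent here. Replicate 1 is part of the cultured pool that defined the culture only peaks, and the in vivo set has no like condition. Their promoter shares were 16.7% (95% CI 15.7 to 17.8) and 10.2% (95% CI 9.4 to 11), a difference of 6.5 points.

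In skin, SOX9, the factor induced in this model, overlapped a larger share of in vivo only than of culture only sites at W1 and W2, closer shares at W6, and a smaller share at W12. The W12 cells came from grafted skin, so time and grafting cannot be told apart. At W1, SOX9 CNR peaks in vivo overlapped 21.1% (95% CI 20.6 to 21.6) of in vivo only and 6.1% (95% CI 5.76 to 6.45) of culture only peaks. At W12 they overlapped 3.61% (95% CI 3.38 to 3.87) and 9.64% (95% CI 9.23 to 10.1). Backgrounds were 2.96% and 1.75% at W1 and 1.04% and 0.829% at W12. In the strongest 10% of peaks the shares were 62.2% and 9.63% at W1 and 9.07% and 23.3% at W12. At W2 the shares of all peaks were 20.8% and 7.94%, and at W6 17.1% and 15.5%, with backgrounds of 3.09% and 2.26% at W6. In the weakest 10% the W6 shares were 8.31% and 9.17%. Shared in vivo peaks were above both classes at W1 and W12, with 48.2% and 22.2%. In D0 skin, SOX9 peaks overlapped 0.425% and 0.0797% of the unshared classes, against backgrounds of 0.206% and 0.109%. In culture the order differed from that of W1 skin. The MYC-tag list of full-length SOX9 with DOX overlapped 0.891% of in vivo only and 3.43% of culture only peaks. Backgrounds were 0.299% and 0.322%, and the MYC-tag list without DOX gave 0.439% and 1.68%.

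Transcription factor words were then counted in all windows, whose median GC content was 46.5% in both unshared classes and 48.5% in shared in vivo peaks. All words were counted on both strands, and control windows of the same width lay 1 kb to each side. Words may overlap within a window, and a match is a description of the letters, not a bound site.

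AP1 was the most frequent word in all 3 classes, and its share was highest in culture only windows. TGACTCA was in 24.7% (95% CI 24.1 to 25.4) of culture only, 17.6% (95% CI 17 to 18.2) of shared in vivo and 9.65% (95% CI 9.27 to 10) of in vivo only windows, with controls of 2.07%, 2.01% and 1.8%. The NFKB word followed the same order at lower shares, with 2.97% (95% CI 2.74 to 3.22), 1.81% (95% CI 1.61 to 2.04) and 0.724% (95% CI 0.62 to 0.844). The RUNX word was above its control in culture only windows, at 4.45% (95% CI 4.16 to 4.75) against 2.43%, and below it in in vivo only windows, at 1.94% against 2.35%. The TEAD word ACATTCC, read by the factors that carry YAP, was at 3.95% in culture only and 2.95% in in vivo only windows.

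The GATA word went the other way. AGATAA was in 8.73% (95% CI 8.36 to 9.11) of in vivo only windows against 5.7% of their controls. It was at its control in shared in vivo windows (5.44% and 5.33%) and below it in culture only windows (5.04% and 6.17%). Among in vivo only peaks the share was 11.6% in the strongest and 8.31% in the weakest 10%, and 10% (95% CI 9.58 to 10.5) away from promoters. In recurrent peaks the GATA word was at 9.43% in vivo and 5% in culture, and the AP1 word at 10.2% and 28.2%.

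The remaining words were rarer, or closer between the classes. KLF (CCACACCC) was in 2.74% of in vivo only and 1.81% of culture only windows, and ETS (CCGGAAG), a promoter word, in 1.51% and 0.919%. SOX (CCATTGT or CCTTTGT) was at 2.51% and 3.9%, the first below its control of 3.26% and the other near its control of 3.65%. In recurrent peaks the SOX word was at 3.56% in vivo and 3.82% in culture, with controls of 3.38% and 3.56%. AP-2 (GCCNNNGGC) was at 4.15% and 4.09%, CEBP (TTGCNNAA) at 5.72% and 5.95%, STAT (TTCCNGGAA) at 0.538% and 0.409% and MITF (GTCACGTG) at 0.579% and 0.345%. The glucocorticoid receptor word was at 0.185% and 0.351%, IRF at 1.19% and 0.93%, and the long TP63 word at 0.0814% and 0.26%. The TP63 word, in only 18 and 49 windows, had controls of 0.0498% and 0.0186%, or a fold over control of 1.64 and 14.

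**Figure D2:**
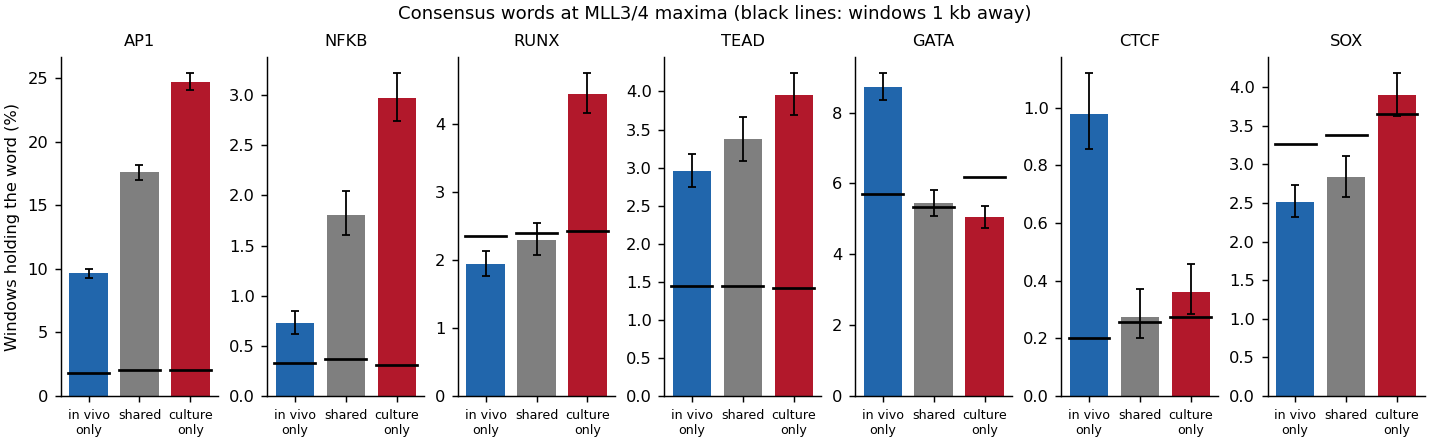
Share of windows of 101 bp at MLL3/4 maxima that hold a consensus word (y axes, %, each with its own scale from 0), for in vivo only (blue), shared in vivo (grey) and culture only peaks (red); bars have 95% Wilson intervals and black lines give windows 1 kb away. AP1, NFKB and RUNX are highest in culture only windows, and GATA and CTCF in in vivo only windows.

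Each peak was assigned to the protein-coding gene with the nearest start, and for every gene the culture only peaks were subtracted from the in vivo only peaks. Genes with a difference of 3 or more were called skin-weighted and those with -3 or less culture-weighted. By this rule 7.32% of protein-coding genes (1600) were skin-weighted and 5.8% (1268) culture-weighted, and 58.9% had any peak. Among the 1974 genes with at least 10 peaks over both lists the shares were 38.7% and 25.8%. Over all genes they were 17.6% and 9.56% for peaks within 50 kb of the gene body. With cultured replicate 1 alone they were 6.11% and 8.04%, and with lists of equal size on every chromosome 5.86% and 5.89%. By recurrent peaks they were 1.95% and 1.57%. The nearest start need not be that of the regulated gene, and MLL3/4 peaks are not a measure of expression.

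*Gata3*, a zinc-finger factor needed for the epidermal barrier and the hair follicle, stood first by nearest start, though most of its peaks lay far from the gene. On chromosome 2 (9857078 to 9890034), it had 54 in vivo only and 8 culture only peaks, with 26 in vivo peaks shared. The in vivo only peaks spread from 11.4 to 1109 kb downstream of the annotated start, and 44 of them lay between genes. With only peaks within 50 kb of the gene body counted, 5 in vivo only and 0 culture only peaks remained, and the difference was 5 rather than 46. In both lists the nearest peak was 10.3 kb downstream of that start. Within 1 kb of the annotated start of another *Gata3* transcript lay the in vivo peaks at 10.7 and 11.4 kb and the cultured peak at 10.3 kb. Of the 54, 32 were also in the W1 list and 28 in W2, 2 in cultured replicate 1, and 1 in the ΔTA list. The best culture only peak there ranked 4524, and the best in vivo only peak 1354.

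The other 9 genes at the skin end were *Foxn3* (35 more in vivo only than culture only peaks), *Nfib* (29), *Cxadr* (29), *Gm26657* (28), *Pik3r1* (28), *Rora* (28), *Klf5* (27), *Epha4* (25) and *Rad51b* (24). *Klf4* also reached 24 and was placed after *Rad51b* because it had fewer peaks over both lists. *Nfib* encodes a factor of hair follicle stem cells, *Klf5* a factor of basal epithelia, *Rora* a nuclear receptor of the clock and of barrier genes, and *Pik3r1* the regulatory subunit of PI3 kinase. *Cxadr*, a tight junction receptor, had 29 in vivo only and 0 culture only peaks, and *Rora* had 29 and 1. Near the gene body the differences were 28 at *Rora* and *Rad51b*, 23 at *Foxn3* and *Nfib*, 11 at *Cxadr* and *Pik3r1*, 9 at *Klf5*, 6 at *Epha4* and 0 at *Gm26657*. With cultured replicate 1 alone *Klf5* was at 17, *Epha4* at 18 and *Rad51b* at 16. At *Foxn3* 22 of the 37 in vivo only peaks were in the W1 list.

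*Cald1* (chromosome 6, 34598500 to 34775473) stood first at the culture end, with 0 in vivo only and 31 culture only peaks. Its single in vivo peak, at the start, was shared and ranked 34165 of 37072, while the peak at the same start ranked 1793 in culture. Of the 31, 25 lay in introns, and 22 recurred in ΔTA and 19 in ΔHMG. Replicate 1, part of the pool that defined these peaks, held 29. In the W1 list 0 of the 31 were found, and 1 in the W2 list. The difference was -31 near the gene body too.

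**Figure D3:**
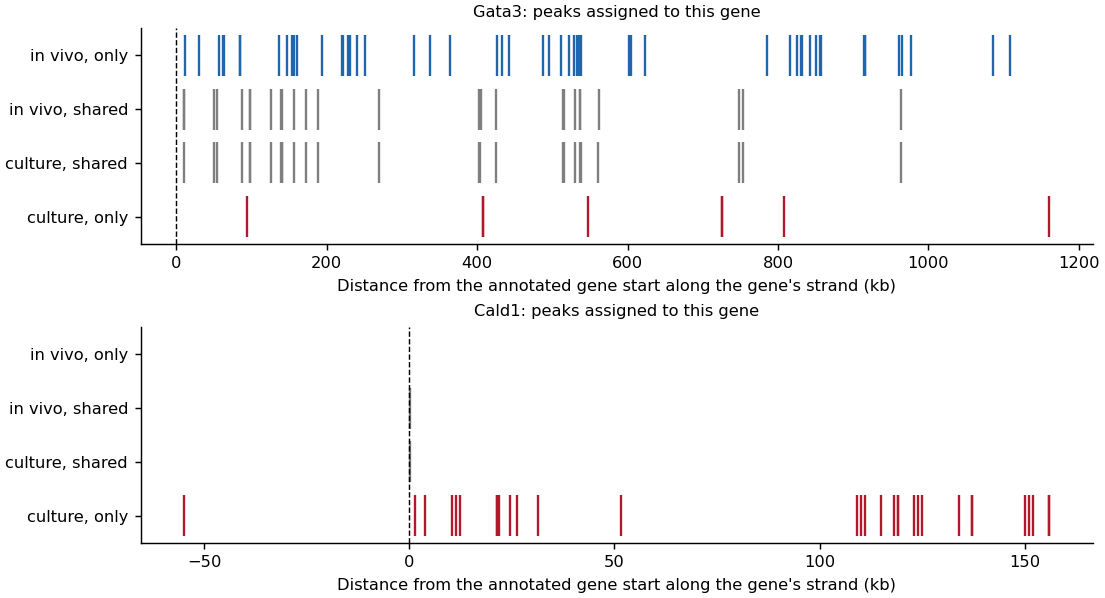
MLL3/4 peaks assigned to *Gata3* (top) and *Cald1* (bottom) as ticks along the distance from the annotated start (x axis, kb), in 4 rows for in vivo only, shared in vivo, shared culture and culture only peaks. At *Gata3* 54 in vivo only ticks face 8 culture only ticks, and at *Cald1* 0 face 31.

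The rest of the culture end held *Foxp1* (-25), *Dusp10* (-25), *Basp1* (-22), *Svil* (-21), *Eif3h* (-21), *Plekha5* (-21), *Ccbe1* (-20), *St3gal1* (-19) and *Arhgap26* (-19). *Dusp10* encodes a phosphatase of stress kinases, *Svil* and *Arhgap26* encode regulators of the actin cytoskeleton, and *Basp1* a membrane protein of growing cell processes. *Basp1* had 1 in vivo and 23 cultured peaks in all. *Ccbe1* had 0 in vivo and 20 cultured peaks, of which 15 recurred in ΔHMG. Near the gene body the differences of these 9 went from -29 at *Foxp1* to -8 at *Dusp10* and *Eif3h*. With cultured replicate 1 alone *Eif3h* was at -34.

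By nearest start, epidermal transcription factors were the list most weighted to skin. Of 26, 15 (57.7%) were skin-weighted and 2 (7.69%) culture-weighted, beside 7.32% and 5.8% of all genes. Among genes with at least 10 peaks, a closer measure for genes rich in peaks, 38.7% and 25.8% were called. The median difference was 4 against 0 over all genes. Starts of the 26 were marked in 20 cases in vivo and 15 in culture, beside 31.9% and 21.7% of all genes. In all they had 310 in vivo only and 119 culture only peaks. After *Gata3* came *Klf5* (27), *Klf4* (24), *Trp63* (17), *Tfap2b* (14), *Grhl1* (12), *Grhl3* (11), *Tfap2c* (11) and *Ehf* (10), which act in the basal layer and in barrier formation. Near the gene body *Klf4* and *Tfap2c* were at 3. *Trp63*, the factor that defines stratified epithelia, had 24 in vivo only and 7 culture only peaks, and its start was marked in vivo and not in culture. The 2 culture-weighted members, *Zfp750* (-6) and *Foxn1* (-3), are factors of differentiation. *Maf* (6, but 2 near the gene body), *Tfap2a* (7), *Bnc2* (5), *Cebpa* (4), *Ets1* (4) and *Foxq1* (3) were also skin-weighted, though *Ets1* turned to -1 with lists of equal size on every chromosome and *Foxq1* to -2 with peaks counted near the gene body. With those equal lists *Tfap2a* (2), *Bnc2* (0) and *Foxq1* (2) were not called either. With cultured replicate 1 alone *Bnc2* and *Ets1* were at 2 and not called. With peaks counted within 50 kb of the gene body, which made 17.6% of all genes skin-weighted and 9.56% culture-weighted, 13 and 4 of the 26 were called. Their median was then 2.5, below 3 for AP-1 genes and 4.5 for basal keratinocyte markers. With cultured replicate 1 alone, where 6.11% of all genes were skin-weighted and 8.04% culture-weighted, 13 and 5 were called. By recurrent peaks alone, which made 1.95% of all genes skin-weighted and 1.57% culture-weighted, 9 of the 26 were skin-weighted and 0 culture-weighted.

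Structural genes were divided, beside 7.32% skin-weighted and 5.8% culture-weighted of all genes. Of 13 hemidesmosome and basement membrane genes 3 were skin-weighted and 2 culture-weighted. *Itga6* (11), the α6 integrin of the hemidesmosome, had 11 in vivo only and 0 culture only peaks, and *Dst* (10) and *Col17a1* (3) lay on the same side. *Itgb1* (-6), the β1 integrin of focal adhesions, and *Lama3* (-11), a laminin-332 chain that keratinocytes lay down at wounds, lay on the other. Of 15 desmosome and adherens junction genes *Dsp* (9) and *Perp* (4) were skin-weighted, and *Ctnnb1* (-4), *Dsc2* (-7), *Dsc3* (-6) and *Ctnna1* (-3, but 1 with equal lists on every chromosome) culture-weighted. The last 3 lie on chromosome 18, with *Lama3*. With cultured replicate 1 alone, where more genes were called on the culture side over all genes too, the hemidesmosome list had 2 skin-weighted and 4 culture-weighted members and the junction list 1 and 7. With peaks near the gene body, which made 17.6% of all genes skin-weighted and 9.56% culture-weighted, both lists had 6 and 2 such members. *Ctnnb1* (0), *Dsc3* (-1) and *Ctnna1* (0) were then no longer called. By recurrent peaks the hemidesmosome list had 0 and 1 and the junction list 1 and 1.

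Keratin genes had few peaks, and their calls stand beside 7.32% skin-weighted and 5.8% culture-weighted of all genes. *Krt5* and *Krt14*, the keratins of basal cells, had marked starts in both lists and differences of -2 and 1. Among keratins of resting epidermis only *Krt10* (4), a suprabasal keratin, was called. Of 8 keratins of wounds, cultures and simple epithelia, 0 were skin-weighted and 3 culture-weighted, namely *Krt8* (-4), *Krt18* (-3) and *Krt6a* (-3), and the start of *Krt6a* was marked in culture alone. Near the gene body *Krt5* was at -6, and these 8 had 2 skin-weighted and 4 culture-weighted members. With recurrent peaks none of the 15 keratins kept a difference of 3 peaks.

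Genes of wounds, migration and YAP had 4 skin-weighted and 9 culture-weighted members of 29, with a median of -1. Over all genes the shares were 7.32% and 5.8%. *Cdh2* (-9) encodes N-cadherin, *Inhba* (-8) an activin chain of wounds, *Ccn2* (-7) a YAP target and *Plau* (-5) urokinase. *Plaur* (-4), *Mmp10* (-3), *Mmp13* (-3) and *Ankrd1* (-3) had 0 in vivo peaks. *Cd44* (7, but 2 with cultured replicate 1 alone), *Ccn1* (7), *Thbs1* (5, but -3 near the gene body) and *Tgfbi* (4) were skin-weighted. With peaks near the gene body the list had 7 skin-weighted and 9 culture-weighted members with a median of 0, and *Inhba* (-1), *Ccn2* (-2), *Mmp13* (0) and *Ankrd1* (-1) were no longer called. The counts were, with cultured replicate 1 alone, 3 and 11, and by recurrent peaks 1 and 1. *Vim*, the mesenchymal intermediate filament, had 0 in vivo peaks and 1 in culture by nearest start, and a difference of -4 near the gene body.

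Among 11 AP-1 genes, *Fos* (11), *Fosl2* (8) and *Fosb* (3) were skin-weighted and *Fosl1* (-4) and *Junb* (-4) culture-weighted. Over all genes 7.32% were skin-weighted and 5.8% culture-weighted. *Fosl1*, which encodes FRA1, a subunit of migrating keratinocytes, had 0 in vivo only and 4 culture only peaks. Near the gene body 6 and 3 of the 11 were called, and by recurrent peaks 0 and 0. The 12 EGF receptor and ligand genes had 5 skin-weighted members, namely *Errfi1* (8), a feedback inhibitor, the receptors *Egfr* (5) and *Erbb3* (3) and the ligands *Ereg* (5) and *Epgn* (5). The 3 culture-weighted ones, *Tgfa* (-8), *Nrg1* (-7) and *Btc* (-4), are ligands too. With cultured replicate 1 alone 3 were called on each side, and near the gene body 6 were skin-weighted and 2 culture-weighted, without *Btc* (-1). By recurrent peaks 1 was called on each side, and *Egfr* was at -1 and *Nrg1* at 2.

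Hair follicle genes had 10 skin-weighted and 5 culture-weighted members of 27, 7 and 5 with equal lists on every chromosome, and 3 and 1 by recurrent peaks. The first counts are 37% and 18.5%, beside 7.32% and 5.8% of all genes and 38.7% and 25.8% of genes with at least 10 peaks. Over all genes the other 2 settings gave 5.86% and 5.89%, and 1.95% and 1.57%. Besides *Nfib*, *Tcf7l2* (12), the WNT effector of follicle stem cells, had 15 in vivo only and 3 culture only peaks. *Sox9* itself (-18) had 15 and 33, but only 1 of each lay within 50 kb of the gene body, where the difference was 0 and the gene was not called. The culture only peaks spread from -803 to 356 kb of its start. *Runx1* (-5, but 1 by recurrent peaks) had 6 and 11. Of the 33 *Sox9* peaks 2 overlapped exons, 1 of them within the gene 2.74 kb from its start. The shared peak at the start was in the top 0.286% of the cultured list and at 27.2% in vivo. A shared exon peak, 1.69 kb from the start in culture, was in the top 2.66% of the cultured list and at 77.8% in vivo. Reads of the *Sox9* transgene align to the same exons, and the transgene and the gene cannot be told apart there.

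Signalling genes again split by gene, beside 7.32% skin-weighted and 5.8% culture-weighted of all genes. TGF-β and BMP genes had 7 skin-weighted and 6 culture-weighted members of 18, with the receptor *Tgfbr2* (18), which had 0 culture only peaks, and *Bmp4* (11) and *Bmp7* (8, but 2 near the gene body) on one side. On the other were *Smad7* (-14), the inhibitory SMAD, *Ltbp1* (-13), which stores latent TGF-β, and *Smad2* (-8, but -2 with equal lists on every chromosome). By recurrent peaks 4 were skin-weighted and 3 culture-weighted. Of 18 NOTCH and WNT genes 7 were skin-weighted, led by the WNT receptor *Fzd10* (16 in vivo only and 0 culture only peaks) and *Axin2* (8), and *Notch2* (-6) and *Jag1* (-3, but 4 near the gene body and 2 with equal lists on every chromosome) were culture-weighted. With equal lists on every chromosome the NOTCH and WNT genes had 4 skin-weighted and 2 culture-weighted members, and by recurrent peaks 2 and 1. The starts of 12 of the 18 were marked in vivo and of 3 in culture, beside 31.9% and 21.7% of all genes.

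Beside 7.32% skin-weighted and 5.8% culture-weighted of all genes, differentiation genes had 5 and 2 members of 19. At the ends were *Tgm3* (18), an epidermal transglutaminase, and *Abca12* (-6), the lipid transporter of lamellar granules. The counts of differentiation genes were 3 on each side with cultured replicate 1 alone, 7 on each side near the gene body, and 1 and 2 by recurrent peaks. Clock and glucocorticoid genes had 5 on each side of 18, and 4 skin-weighted and 0 culture-weighted by recurrent peaks. Genes that glucocorticoids induce were on both sides, with *Dusp1* (11), *Sgk1* (10) and *Zbtb16* (9) skin-weighted and *Fkbp5* (-6), *Klf9* (-3, but -1 near the gene body) and *Per1* (-3, but 1 near the gene body) culture-weighted. *Nr3c1* (4, but 0 near the gene body), the glucocorticoid receptor, was skin-weighted, and *Arntl* (-14, but 1 by recurrent peaks), the clock activator BMAL1, culture-weighted. Epithelial cytokine genes had 4 skin-weighted and 5 culture-weighted members of 15. *Cxcl14* (15) and *Tslp* (12), made by resting or allergic epidermis, and the NFKB inhibitors *Tnfaip3* (5, but -3 by recurrent peaks) and *Nfkbia* (3) were skin-weighted. Culture-weighted were *Il1a* (-8), *Il7* (-4), *Ccl20* (-4), *Cxcl1* (-3) and *Cxcl2* (-3), and the starts of these 5 were marked in culture and not in vivo. Near the gene body the list had 4 and 9 called members, and by recurrent peaks 3 and 2.

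Cell cycle genes had 0 skin-weighted and 4 culture-weighted members of 18, with *Cdkn2b* (-12), *Myc* (-9), *Cdkn2a* (-7) and *Cdk6* (-3). Over all genes the shares were 7.32% and 5.8%. *Cdkn2a* and *Cdkn2b* encode the p16, p19 and p15 inhibitors that accumulate when primary cells divide in culture. At *Cdkn2a* 0 in vivo and 7 cultured peaks were assigned, and 5 more recurrent peaks in culture than in vivo. *Myc* had many peaks in both lists, 21 in vivo only and 30 culture only. Its difference was -20 with cultured replicate 1 alone and 3 with peaks counted near the gene body. Near the gene body *Cdk6* was at 0 and the list had 4 members on each side, beside 17.6% and 9.56% of all genes. With cultured replicate 1 alone the list had 1 and 6, beside 6.11% and 8.04% of all genes, and by recurrent peaks 0 and 2.

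**Figure D4:**
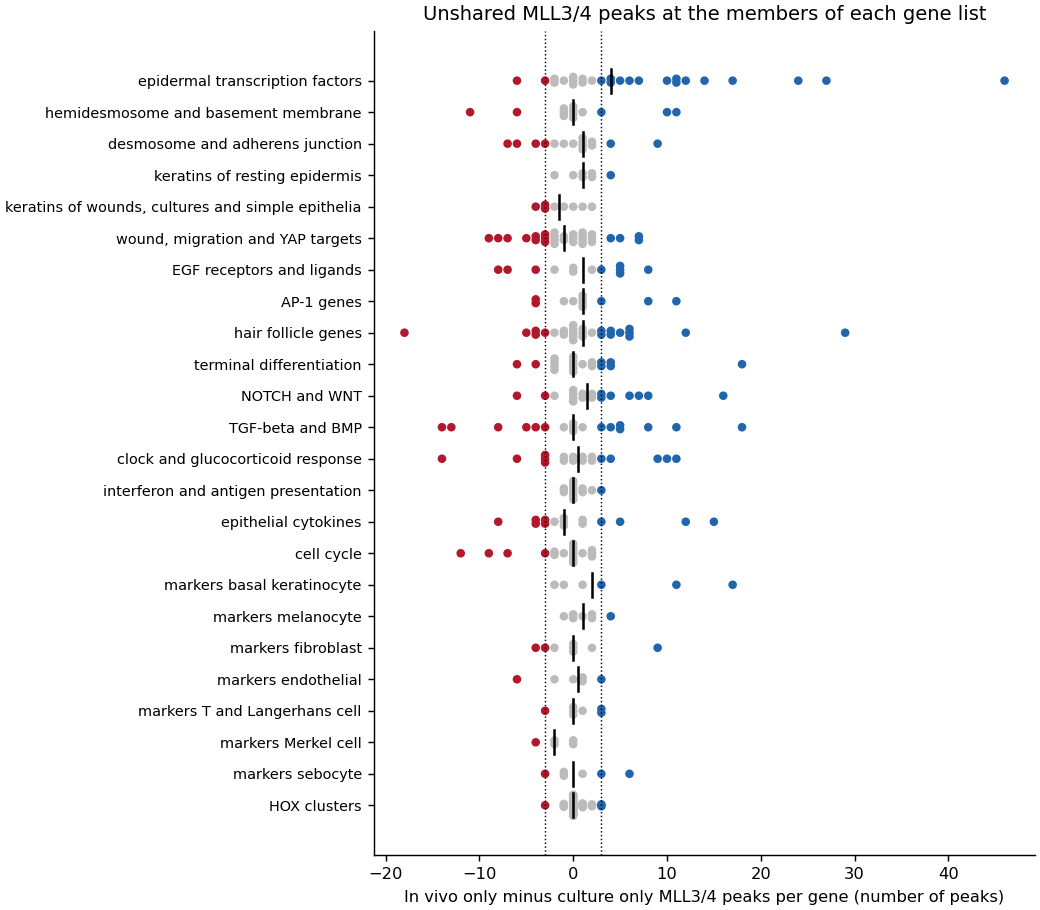
Each point is a gene, placed by its in vivo only minus culture only MLL3/4 peaks (x axis, number of peaks) in its gene list (rows), with skin-weighted genes in blue, culture-weighted genes in red and the list's median as a black line; dotted lines are at 3 and -3. Epidermal transcription factors reach 46 with a median of 4, and cell cycle genes have no blue point.

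The labelled cell type was checked by marker genes. Of 6 basal keratinocyte markers 5 had a marked start in vivo and 3 in culture, the exceptions being *Itgb4* in both and *Trp63* and *Itga6* in culture. Of 7 melanocyte markers 2 (*Mitf* and *Dct*) had a marked start in vivo and 0 in culture. Fibroblast markers had 0 of 8 in either list, Merkel cell markers 0 of 5, and endothelial and T or Langerhans cell markers 0 in vivo and 1 each (*Pecam1* and *Laptm5*) in culture. Sebocyte markers had 1 of 6 in each. Over all genes these shares were 31.9% in vivo and 21.7% in culture. By assigned peaks, the fibroblast genes *Twist2* (0 in vivo and 4 cultured peaks) and *Col1a2* (0 and 3) were culture-weighted and *Dcn* (9) skin-weighted, and of the endothelial genes *Kdr* (0 and 6) was culture-weighted and *Pecam1* (3) skin-weighted. The T or Langerhans cell genes *Ptprc* (3, but -1 near the gene body) and *Cd3e* (3) were skin-weighted and *Laptm5* (-3) culture-weighted. *Mitf* (4) of melanocytes and *Scd1* (6) and *Elovl6* (3) of sebocytes were skin-weighted, and *Pparg* (-3) of sebocytes and *Isl1* (-4) of Merkel cells culture-weighted. Near the gene body *Dcn* (0), *Twist2* (-2), *Col1a2* (-1), *Kdr* (-2) and *Isl1* (0) were not called. The part of such cells in the results was not tested.

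HOX genes, which record position in the body, had 3 skin-weighted and 1 culture-weighted member of 39, beside 7.32% and 5.8% of all genes. With peaks within 50 kb of the gene body 17 were skin-weighted and 0 culture-weighted, beside 17.6% and 9.56% of all genes, and by recurrent peaks 0 and 0. Neighbouring genes of a HOX cluster share peaks within that distance.

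Peaks were spread over the chromosomes differently in culture, and this touches every count per gene. Relative to the in vivo D0 list, the cultured list had 1.53 times the share of its peaks on chromosome 18, 1.39 times on chromosome 6, 1.32 times on X and 1.23 times on chromosome 2. The shares were 0.742 times on chromosomes 4 and 16, 0.749 times on 17, 0.764 times on 9 and 0.774 times on 14. The in vivo W1 and W2 lists stayed between 0.852 and 1.18. The cultured ΔTA, ΔHMG and full-length SOX9 lists lay on the same side of 1 as the cultured no-DOX list for 20, 18 and 18 of 20 chromosomes, and the MYC-tag list of cultured no-DOX cells, made with another antibody, for 15. Its ratios were 2.09 on chromosome 18 and 0.417 on chromosome 16. The median maximum per peak in culture was between 12 and 14 on every chromosome. Copy number was not measured, and its part in this pattern was not tested.

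Culture-weighted genes made up 19.2% of the genes of chromosome 18 and 11.9% of those of chromosome 6, and skin-weighted genes 11% of those of chromosome 16. Gene counts were therefore repeated with lists of equal size on every chromosome. This gave 1281 skin-weighted and 1288 culture-weighted genes, of which 1223 and 1129 had the same call before. Epidermal transcription factors then had 12 skin-weighted and 2 culture-weighted members with a median of 2, wound genes 4 and 10, and cell cycle genes 0 and 4.

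**Figure D5:**
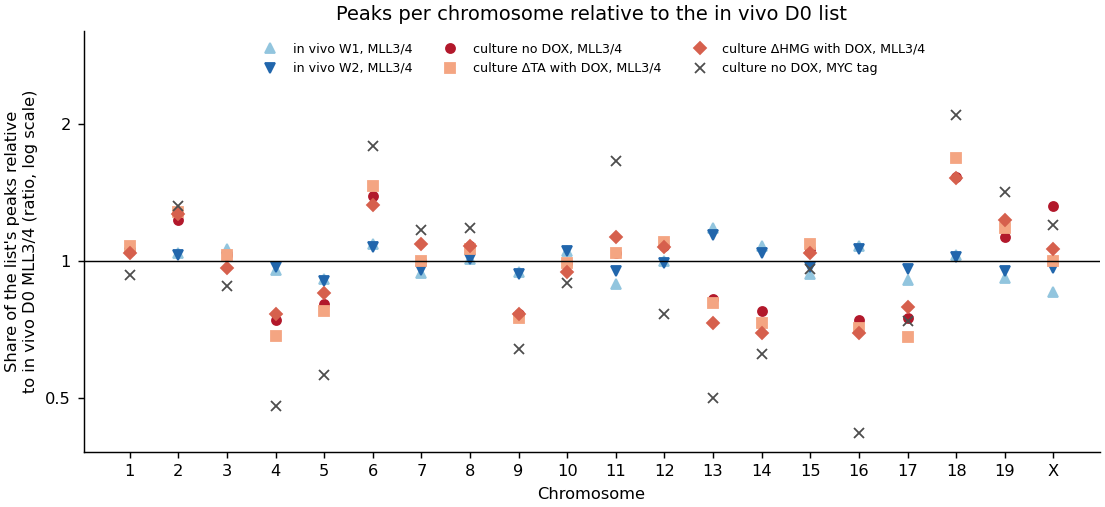
Share of a list's peaks on each chromosome (x axis) divided by the share in the in vivo D0 MLL3/4 list (y axis, ratio, log scale), for 6 other lists marked by symbol. In vivo W1 and W2 stay within 0.852 to 1.18, while cultured lists lie above 1 on chromosomes 2, 6 and 18 and below 1 on chromosomes 4, 5, 9, 13, 14, 16 and 17.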

How the data were processed

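The members, gene lists and words were chosen with earlier results of these data known. In 41 samples CNR was measured, and 15 of 18 deposited peak lists were used. Per the methods, the authors trimmed reads, aligned them to mm10 with Bowtie2 2.2.9, removed duplicates with Picard, kept short fragments with SAMtools 1.3.1, combined the replicates, made RPKM tracks with deepTools 3.1.2 and called peaks with SEACR. The deposited maximum signal of the pooled MLL3/4 lists, however, is a whole number, and unscaled coverage rather than RPKM was inferred from this. The label of the in vivo list names RPKM and that of the cultured pool does not. Whether both were called from tracks made alike is unsure, and no common scale is known. The deposited total signal of a peak is a score, the sum over its bases. The deposited SOX9, MYC-tag and replicate 1 lists hold RPKM signal. Depth is not given in the sources used here.

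Peaks were handled in Python 3.11.15 with pandas 2.3.3, numpy 2.4.6 and pysam 0.24.0, with scipy 1.17.1 for rank correlations and matplotlib 3.10.9 for plots. Genes came from GENCODE vM21 and sequences from GRCm38.p6, and 0 peaks ran past a chromosome end. Mitochondrial peaks (0 in vivo and 3 in culture) were left out. Intervals are 95% Wilson. The functions were tested on simulated data. Named genes were the 10 most skin-weighted and 10 most culture-weighted genes, list members with a difference of at least 3 peaks, 7 fixed genes and the strongest peaks of each class. Alternatives changed the overlap, list size, promoter width, windows, gene assignment and cultured samples. Some list members are not reported here. No test was made, because each group has 1 list.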

Additional observations from a re-analysis of the deposited data

How the results depend on the processing

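The share of in vivo peaks that was shared, 40.4%, was 39.6% when the overlap had to cover 50% of the shorter of both peaks, 42.5% with lists of equal size, 39.5% in the stronger 50% of each list, 42.2% after merging peaks within 500 bp, 48.6% when peaks within 1 kb counted as shared and 43% with lists of equal size on every chromosome. For the cultured peaks, 44.6%, these were 43.8%, 43.2%, 43.6%, 45.1%, 50.7% and 43.6%. With cultured replicate 1 alone (without replicate 2) the shares were 42.9% and 41.8%. That list held 40061 peaks of median width 226 bp, against 33975 of 296 bp in the pool, and on another signal scale. This setting therefore changes more than the replicate left out. The promoter difference of 12.6 points was 11 in the stronger 50% and 6.5 for recurrent peaks, and rho at shared peaks, 0.374, was 0.353 by maximum signal. Skin-weighted and culture-weighted genes, 1600 and 1268, numbered 3854 and 2089 for peaks within 50 kb of the gene body and 426 and 342 for recurrent peaks. Fold over control of the words was, for GATA in vivo only, 1.53, and 1.67 away from promoters. For AP1 in culture only windows it was 11.9, with 8.45 in wider windows, 14 against controls 5 kb away, 12.5 away from promoters and 13.2 for recurrent peaks. For RUNX it was 1.83, with 1.6 in wider windows and 2.25 for recurrent peaks, and for NFKB 9.56, with 6.36 and 8.57. For CTCF in vivo only it was 4.85, with 3.52, 3.96, 5.81 and, for recurrent peaks, 0.917. With that overlap, in vivo only peaks were in the W1 list in 37.7% and culture only peaks in 10.1% of cases. Wider windows hold more chance matches by construction. The cause of the other differences was not tested. Alternatives by chromosome and by recurrence were chosen after seeing the data.

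Genes whose sign turned were, with peaks within 50 kb of the gene body, *Foxq1* (-2), *Thbs1* (-3), *Lrig1* (-3), *Hes1* (-1), *Jag1* (4), *Per1* (1), *Myc* (3) and *Ptprc* (-1). With lists of equal size *Wnt7b* turned (-2), and with lists of equal size on every chromosome *Ets1* (-1), *Ctnna1* (1), *Hes1* (-4), *Jag1* (2) and *Id3* (-1). By recurrent peaks *Egfr* (-1), *Nrg1* (2), *Foxc1* (1), *Runx1* (1), *Hes1* (-2), *Arntl* (1) and *Tnfaip3* (-3) turned. Of 163 named genes, 163 kept their side of the threshold with 50% overlap, 142 with replicate 1 alone and 63 by recurrent peaks, where fewer peaks are counted. No paired analysis was possible because the samples of each group were pooled into 1 list.

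What limits these results is that 1 list stands for each group, that the depth of both lists is unknown, and that weak peaks near the peak caller's threshold can be unshared for that alone. An unshared peak means that no peak was called in the other list, not that MLL3/4 was absent there.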

Other observations

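The CTCF word, the consensus of the insulator protein, was in 0.977% (95% CI 0.856 to 1.12) of in vivo only windows against 0.201% of their controls, in 0.274% of shared in vivo windows and in 0.361% of culture only windows. It was concentrated in weak peaks, with 0.0986% in the strongest and 2.17% in the weakest 10% of in vivo only peaks. Among in vivo only peaks found in neither W1 nor W2 it was in 1.51% (95% CI 1.3 to 1.76) of windows, and among recurrent ones in 0.221% (95% CI 0.124 to 0.396). The GATA word did not follow this, with 9.01% and 9.43% in the same sets. The depth of the D0 list relative to W1 and W2 is unknown, and its part in the CTCF values was not tested.

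The MYC-tag list of cultured cells without DOX, in which no tagged SOX9 was induced, overlapped 7.87% (95% CI 7.45 to 8.31) of shared in vivo peaks, 1.68% of culture only and 0.439% of in vivo only peaks, against moved backgrounds of 0.458%, 0.12% and 0.12%.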
